A study of Mus musculus with 12 samples.

Results

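Argonaute 2 (AGO2) binding was examined on 6 long noncoding RNAs in mouse tibialis anterior muscle. They were H19, the transcripts Meg3, Rian and Mirg of the Dlk1-Dio3 imprinted region, and the nuclear RNAs Malat1 and Neat1. The peaks examined were all listed peaks that overlapped one of these genes on the same strand by at least 1 nt, with no threshold on fold or p-value. This gave 1330 of 1426686 entries over 8 peak lists. In the 4 lists that set an AGO2 library against its own input, the 6 genes held 75 of 92451 peaks in WT set 1, 92 of 119859 in mir-486 KO set 1, 284 of 244814 in WT set 2 and 214 of 256219 in mir-486 KO set 2.

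The peaks came from chimeric eCLIP, in which RNA was cross-linked to AGO2 with ultraviolet light, immunoprecipitated (IP) and sequenced, and microRNAs were ligated to their bound targets. One group was wildtype mice (WT, strain label C57BL/6), and the other was miR-486-/- mice (mir-486 KO, strain label FVB N/J), in which a CRISPR deletion inside an Ank1 intron removed the microRNA hairpin. All mice were 6 months old and, per the methods, male, and the labels name no treatment. Each genotype had 1 AGO2 IP library and 1 input library in each of 2 sets, named by the sample titles, so n was 2 libraries per genotype. The methods describe backcrossing of the KO line onto C57BL/6J and the labels name different strains, so genotype and named strain cannot be told apart here. The methods do not tie the muscles to these libraries, so the spread between sets may be partly technical. With 2 libraries against 2, the smallest p that an exact two-sided permutation test allows is 0.33, and no test between genotypes was made.

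AGO2 is the protein that carries microRNAs to their target RNAs, and a microRNA finds its target mainly through its seed, the bases near its 5′ end. H19 is a cytoplasmic, maternally expressed RNA that is abundant in fetal muscle and is the host of miR-675. Malat1 is retained in nuclear speckles, and Neat1 is the scaffold of nuclear paraspeckles. Meg3, Rian and Mirg are transcribed from the maternal chromosome in one direction and host microRNAs and small nucleolar RNAs (snoRNAs).

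Enriched AGO2 peaks lay almost entirely on H19, and within it mostly on its short internal exons, so those sequences are shown first. Sequences were read from the GRCm38.p6 reference. H19 exon 3 is at chr7:142576409-142576530 and exon 4 at chr7:142576203-142576330, both on the minus strand, numbered as in the 5-exon transcript H19-202. Capitals mark the only 7-nt word found in any H19 exon that pairs with bases 2 to 8 of a microRNA of the searched list.
H19 exon 3: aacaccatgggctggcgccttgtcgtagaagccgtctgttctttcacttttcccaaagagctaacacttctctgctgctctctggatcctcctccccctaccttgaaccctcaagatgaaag
H19 exon 4: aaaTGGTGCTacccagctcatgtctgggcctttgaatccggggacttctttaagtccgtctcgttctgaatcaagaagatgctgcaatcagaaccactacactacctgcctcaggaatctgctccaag
The word pairs with the seed of miR-29a-3p, a microRNA that targets many collagen transcripts. Its seed is in capitals in the next line, taken from the RefSeq table of that build.
miR-29a-3p: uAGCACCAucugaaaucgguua

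A set of sequences from Mirg is shown because nearly all Mirg peaks lay on microRNA hairpins. The capitals again mark bases 2 to 8, and none of these 4 microRNAs shares its seed with another.
miR-154-5p: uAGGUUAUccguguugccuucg
miR-541-5p: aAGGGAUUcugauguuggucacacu
miR-369-3p: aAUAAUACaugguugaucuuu
miR-410-3p: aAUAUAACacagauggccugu

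Each peak carried a log2 fold between 2 libraries and a −log10 p, both as deposited. A peak was called enriched when its log2 fold and its −log10 p both reached 3. The share of all listed peaks that passed this rule over input was 3.57% in WT set 1, 0.848% in KO set 1, 1.42% in WT set 2 and 1.23% in KO set 2. The median log2 fold of all peaks in these lists was 0.68, 0.38, 0.47 and 0.45. All 10 skeletal muscle marker genes, among them Acta1, Ckm and Myh4, held listed peaks in every library, as did all markers of endothelium, fibroblasts and Schwann cells, 4 of each. Muscle markers had enriched peaks in 7 of 10 genes in WT set 1 but in 1, 0 and 0 genes in KO set 1, WT set 2 and KO set 2, so the WT set 1 library stood apart from the others.

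Of the 665 peaks on the 6 genes over input, 41 were enriched and 40 of them lay on H19. The other one lay on Mirg, and Malat1, Neat1, Meg3 and Rian had none in any of the 4 libraries. H19 had 5 enriched peaks of 14 listed in WT set 1, 13 of 23 in KO set 1, 10 of 33 in WT set 2 and 12 of 28 in KO set 2. These shares stood above the share of all peaks in each of the 4 lists. The lists hold many peaks that adjoin end to end, so pieces of 1 bound stretch are not independent, and the 33 H19 pieces of WT set 2 formed 6 separate stretches.

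**Figure D1:**
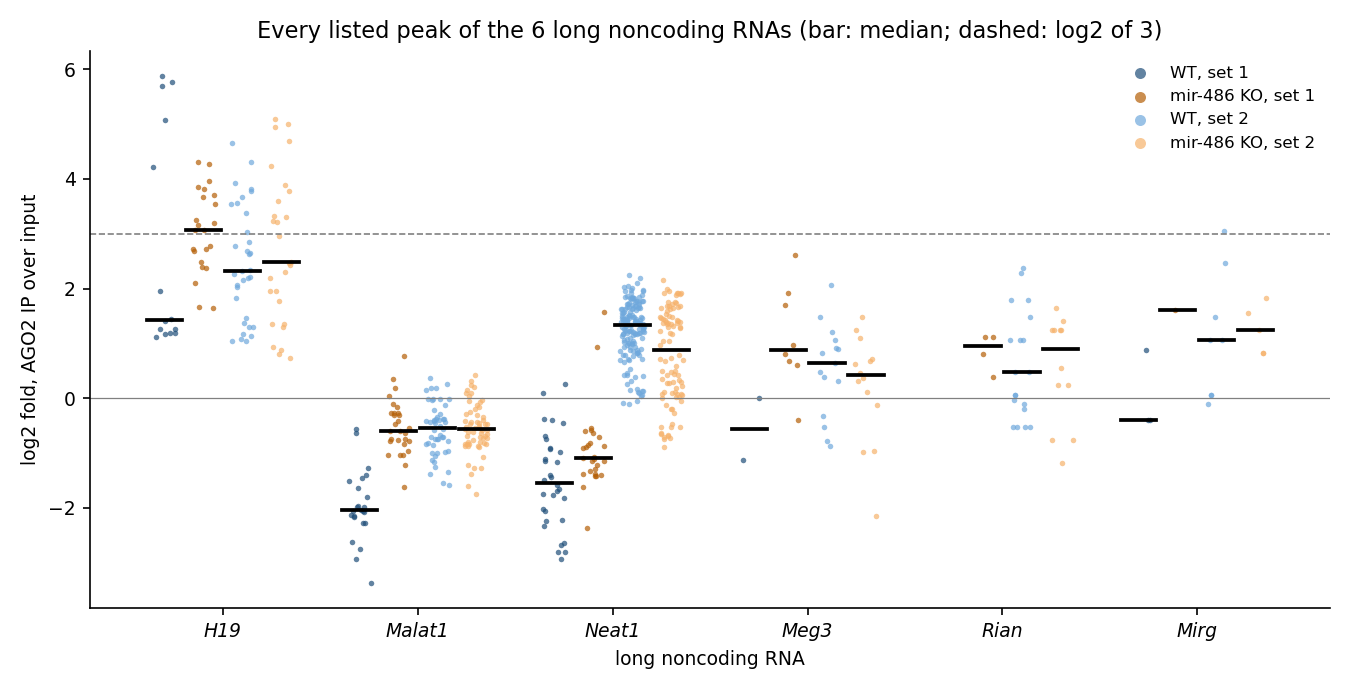
The log2 fold of AGO2 IP over input (vertical axis) of every listed peak of the 6 genes, by library (colors), with a bar at the median and a dashed line at the threshold of 3. H19 peaks lay above 0 in all 4 libraries, Malat1 medians lay below 0 in all 4, and Neat1 medians lay below 0 in set 1 and above 0 in set 2.

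H19 (chr7:142575529-142578143, minus strand) had median log2 folds over input of 1.43 in WT set 1, 3.07 in KO set 1, 2.32 in WT set 2 and 2.48 in KO set 2. All 98 H19 peaks had a log2 fold above 0, with the lowest at 0.73 in KO set 2. The mean of the medians was 1.87 ± 0.62 in WT and 2.78 ± 0.42 in mir-486 KO (SD, n = 2 sets). Both KO values lay above both WT values, and in set 2 the gap between genotypes was smaller than the gap between the sets of either genotype. Ranked among genes with at least 5 listed peaks, H19 stood at place 888 of 6215 in WT set 1, 15 of 6484 in KO set 1, 108 of 9767 in WT set 2 and 89 of 9769 in KO set 2. Among noncoding genes of the annotation's long RNA classes it stood at place 14 of 79, 4 of 114, 10 of 218 and 10 of 222.

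The enrichment was highest in exons 3 and 4. In exon 4 the length-weighted mean log2 fold was 5.72 in WT set 1, 3.88 in KO set 1, 4.12 in WT set 2 and 4.26 in KO set 2. In exon 3 it was 4.92, 3.64, 3.90 and 3.81 in the same order. Both were well above exon 1, the longest exon, at 1.27, 2.64, 1.64 and 1.59, and above the 3′ exon 5, at 1.48, 2.64, 1.77 and 1.51. Exon 2 held no listed peak in WT set 1 and had means of 3.47 in KO set 1, 3.04 in WT set 2 and 2.99 in KO set 2. Exon 4 was therefore the highest exon in all 4 libraries.

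**Figure D2:**
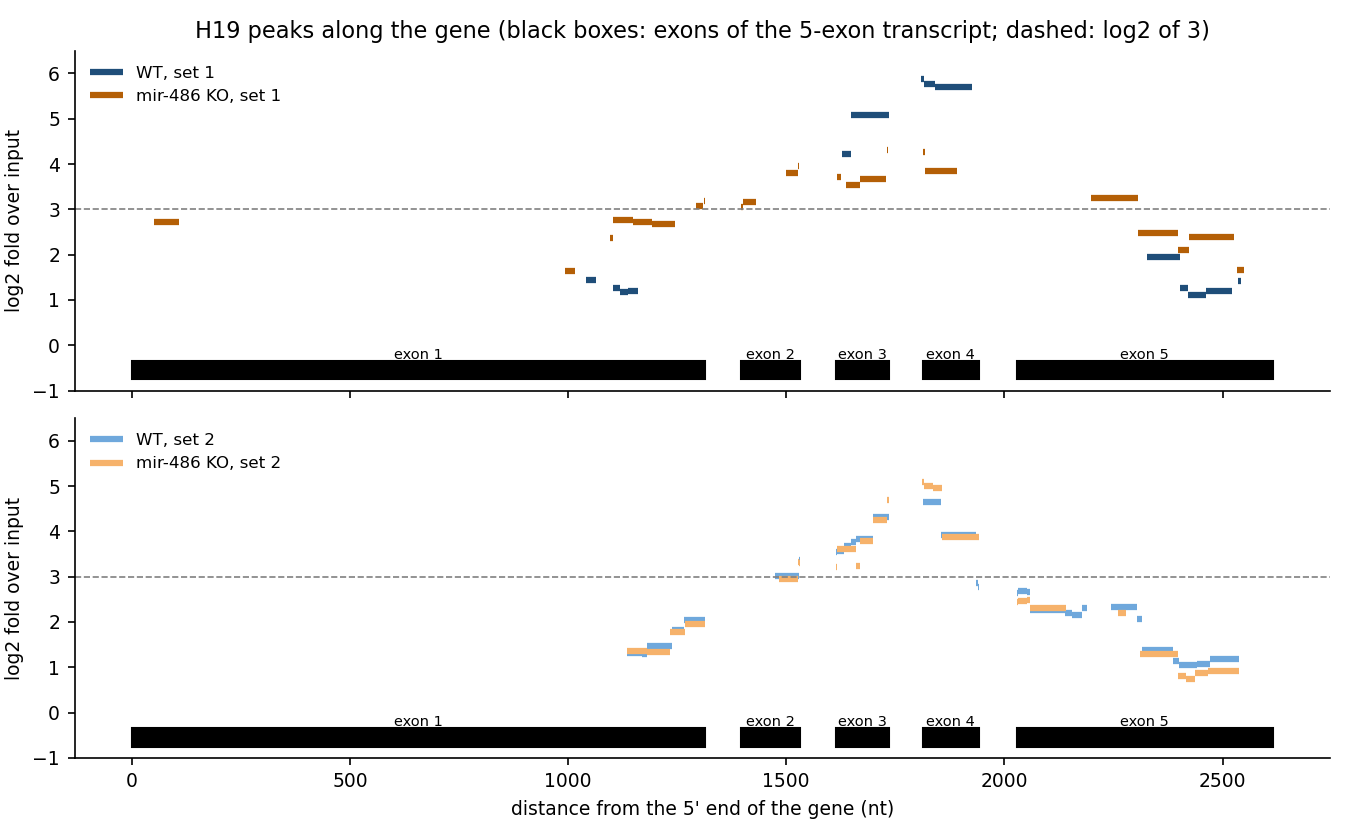
The log2 fold over input (vertical axis) of each H19 peak against its distance from the 5′ end of the gene in nt, set 1 above and set 2 below, with the exons of the 5-exon transcript as black boxes. The 2 genotypes of set 2 ran close together along the gene, and in set 1 the WT library was higher in exons 3 and 4 and lower in exons 1 and 5.

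H19 peaks kept to the exons. The bases of listed peaks inside the introns of the 5-exon transcript were 3 nt in WT set 1, 1 nt in KO set 2 and 0 nt in the other 2 libraries. The peak at chr7:142576328-142576333, 6 nt long and across the 5′ edge of exon 4, had the highest log2 fold over input of the 98 H19 peaks, at 5.88 in WT set 1 with a −log10 p of 400, the largest value written in the lists. The adjoining piece at chr7:142576304-142576327 began at the miR-29a-3p word. It had a log2 fold of 5.77 in WT set 1, and the pieces that held the whole word in set 2 had 4.65 in WT and 5.00 in KO. In KO set 1 no single piece held the whole word, since the edge between adjoining pieces at 4.27 and 3.85 fell inside it.

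In a window of 100 nt centered on each enriched peak, the miR-29a-3p word was present in 2 of 5 member peaks in WT set 1, 2 of 13 in KO set 1, 1 of 11 in WT set 2 and 3 of 12 in KO set 2. Among all enriched peaks the shares were 5.37%, 3.25%, 2.44% and 3.11%. The member peaks with the word all came from the same place in exon 4, so they are pieces around 1 site and not several sites. The words of let-7a-5p, miR-30a-5p, miR-26a-5p, miR-27b-3p, miR-24-3p, miR-22-3p, miR-125b-5p, miR-10b-5p, miR-499-5p and miR-9-5p were in none of the windows of the members' enriched peaks. Among all enriched peaks these words had shares of 0.197% to 4.03%, so none in 5 to 13 adjoining peaks per list says nothing particular about the 6 genes. The word of miR-206-3p, a muscle microRNA added after the data had been seen, was also in none of them, beside 10.9% of all enriched peaks in WT set 1. With the shorter words opposite bases 2 to 7, miR-9-5p matched in 2 of 5, 3 of 13, 4 of 11 and 4 of 12 member peaks in WT set 1, KO set 1, WT set 2 and KO set 2, where 6.10%, 3.44%, 5.61% and 5.24% of all enriched peaks matched. The printed exons 3 and 4 hold this word at only 1 place, in exon 3. Adjoining pieces have overlapping windows, so these matches too need not be separate sites. The search read only these letters on the sense strand. The table used held no sequence of miR-1a-3p, miR-133a-3p, miR-23b-3p, miR-378a-3p and miR-486a-5p, so no words were made from them. miR-1a-3p shares its seed with miR-206-3p, so the word read for miR-206-3p stands for miR-1a-3p as well.

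H19 hosts the Mir675 hairpin in exon 1 (chr7:142577064-142577147). A peak there covered 19 of the 22 bases of miR-675-3p in WT set 1, with a log2 fold of 1.45, and another covered 5 of the 22 bases of miR-675-5p in KO set 1, with a log2 fold of 1.64. Neither reached the threshold, and no set 2 peak touched the hairpin. The enriched peaks of H19 thus lay outside its microRNA. Some other microRNA hosts had their enriched peaks on the microRNA. In Mir17hg, host of the miR-17 cluster, all 8, 7, 10 and 9 enriched peaks of WT set 1, KO set 1, WT set 2 and KO set 2 lay on annotated microRNA genes. In Dleu2, host of miR-15a and miR-16-1, it was all 4 enriched peaks in each library. In Ftx, another microRNA host, it was 2 of 3 enriched peaks in WT set 2 and 2 of 2 in KO set 2.

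Igf2, the growth factor gene next to H19 that is expressed from the other parental chromosome, also had peaks well above input. Its median log2 fold was 1.96 in WT set 1, 1.38 in KO set 1, 2.12 in WT set 2 and 1.88 in KO set 2, with 3, 0, 4 and 6 enriched peaks. Of a list of 24 imprinted genes that held Igf2 but none of the 6 genes, 16, 17, 18 and 17 had a listed peak in these libraries, and 3, 0, 3 and 2 had an enriched one. Of 33 other long noncoding RNAs, 30 were found in the annotation by name and 4, 5, 4 and 5 had an enriched peak. Together they held 18, 16, 21 and 21 enriched peaks, most of them on the microRNA hosts Mir17hg, Dleu2 and Ftx, which belong to this list. A few lay elsewhere in the list. Tug1 had 1 enriched peak in KO set 1 and 2 in KO set 2, and Lncpint had 2 in WT set 1 and 1 in KO set 1, none of them on a microRNA gene.

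The direct lists set 1 AGO2 library against the other, WT over KO at the peaks of the WT library and KO over WT at those of the KO library. Both lists of a set compare the same 2 libraries. Peaks tend to be higher in the library they were called in, so the KO lists are given with the sign turned. At the H19 peaks of WT the median log2 fold of WT over KO was 1.11 in set 1 and 1.08 in set 2, and at the peaks of KO it was 1.02 in each set. WT was higher at all 14 and 33 WT peaks and at all 23 and 28 KO peaks. The mean of both kinds of peak was 1.07 in set 1 and 1.05 in set 2, or 1.06 ± 0.01 (SD, n = 2 sets), a fold of 2.08. The same value over all listed peaks was 0.01 in set 1 and 0.02 in set 2. H19 stood at place 232 of 5282 genes in set 1 and 34 of 9048 in set 2. The direction was not particular to H19. At the WT peaks of Igf2 the median WT over KO was 1.74 in set 1 and 1.31 in set 2. At the KO peaks of Igf2 the median KO over WT was −0.16 in set 1 and −1.22 in set 2, so WT was higher there too.

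**Figure D3:**
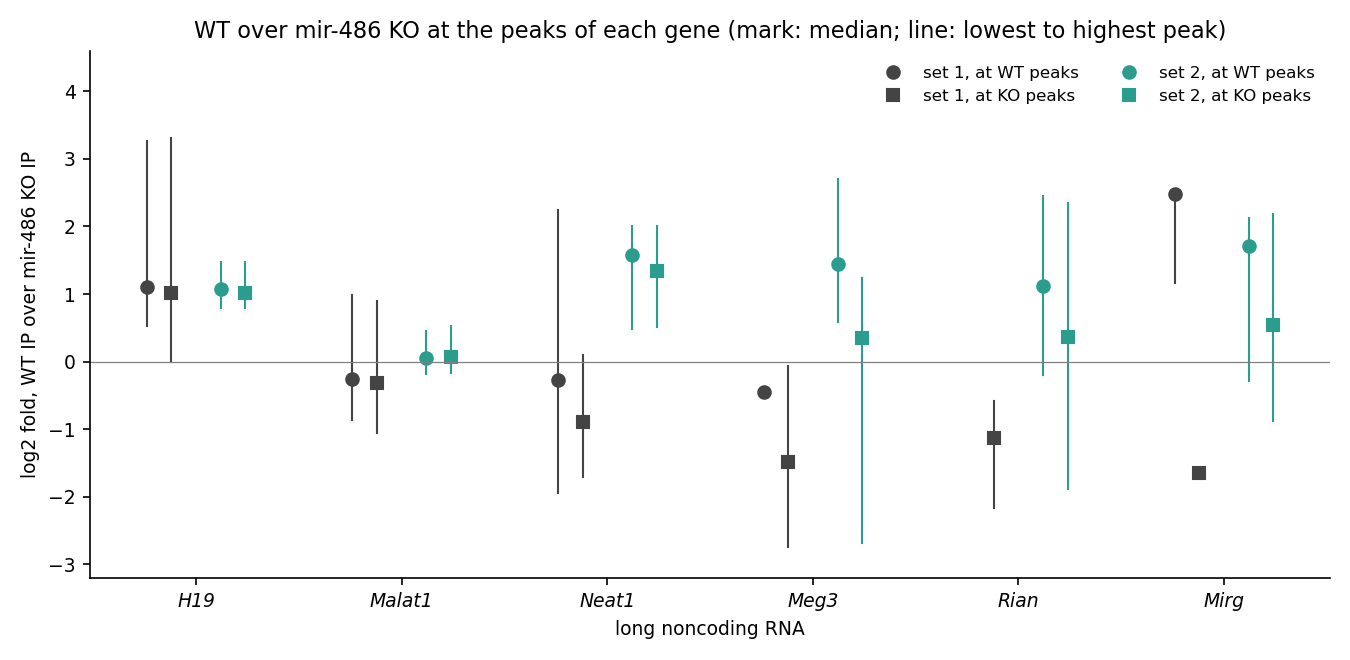
The log2 fold of the WT AGO2 library over the mir-486 KO AGO2 library (vertical axis) for each gene, at WT peaks (circles) and at KO peaks (squares), with lines from the lowest to the highest peak. The H19 medians lay above 0 in both sets, and those of Neat1, Meg3 and Rian lay below 0 in set 1 and above 0 in set 2.

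Only 2 member peaks passed the thresholds of 3 and 3 in a direct list, both at the 5′ end of H19 exon 4 in WT over KO set 1, at log2 folds of 3.27 and 3.12. They were the piece across the exon edge and the piece that began at the miR-29a-3p word. The share of all peaks past these thresholds was 0.469% in that list, 0.0192% in WT over KO set 2, 0.179% in KO over WT set 1 and 0.0144% in KO over WT set 2, and the 6 genes had no peak past them in those other lists. At a lower log2 threshold of 1 and the same −log10 p, 8 of 14 H19 peaks passed in WT over KO set 1 and 21 of 33 in set 2, against 4.85% and 0.403% of all peaks. No H19 peak passed in KO over WT, where the shares of all peaks were 0.755% and 0.144%.

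By exon the sets differed. At WT peaks the length-weighted mean log2 fold of WT over KO was 2.91 in exon 4 and 2.77 in exon 3 in set 1, against 0.83 and 0.88 in set 2. In exons 1 and 5 it was 0.64 and 1.03 in set 1, against 1.11 and 1.32 in set 2. Exons 3 and 4 thus stood above exons 1 and 5 in set 1 and below them in set 2. Exon 2 had no WT peak in set 1, and at KO peaks its WT over KO value was 0.66, between exon 1 at 0.40 and exon 5 at 0.86. Set 1 was also the set where the WT library stood apart in its muscle markers. The median log2 fold of WT over KO over the 10 muscle markers was 0.83 at WT peaks and 0.78 with the sign turned at KO peaks in set 1, and −0.08 at both in set 2. Their part in the exon values was not tested.

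Because the same library pairs were compared in both ways, the difference between the inputs can be worked out as the WT over KO fold minus the WT over input fold plus the KO over input fold. For H19 exon 4 it was 1.07 in set 1 and 0.96 in set 2, and for exon 3 it was 1.49 and 0.78. For the outer exons it was 2.01 and 1.06 in exon 1 and 2.18 and 1.06 in exon 5, so the values were uneven along the transcript in set 1. The exon values join means over WT peaks and over KO peaks, which did not cover the same bases. In set 1 these peaks covered 77 and 246 nt of exon 1, and 203 and 342 nt of exon 5. The unevenness can therefore not be told apart from unlike peak sets. Over H19 peaks of WT that a KO peak covered by at least 50%, the implied WT over KO input difference had a median of 1.72 in set 1 (13 peaks) and 1.01 in set 2 (28 peaks). Over all such peaks in the lists the median was −0.36 in set 1 and −0.08 in set 2, and the range from the percentile 5 to the percentile 95 was −2.11 to 1.29 and −1.45 to 1.23. Malat1 had 1.09 in set 1 (21 peaks) and 0.07 in set 2 (45 peaks), and Meg3 had 1.21 (2 peaks) and 0.71 (4 peaks). Rian had 0.89 (5 peaks) and Mirg −0.38 (3 peaks) in set 2, with no matched peak in set 1. Values above the median of all peaks were thus not particular to H19. In set 2 the H19 difference between the AGO2 libraries, 1.05 at the same peaks, was close to that between the inputs, and the log2 folds over input were 2.65 in WT and 2.45 in KO. In set 1 it was 1.21, and the log2 folds over input were 1.42 in WT and 2.78 in KO. The cause of the H19 difference was not tested, and RNA amount, cell make-up and named strain cannot be told apart in whole muscle.

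**Figure D4:**
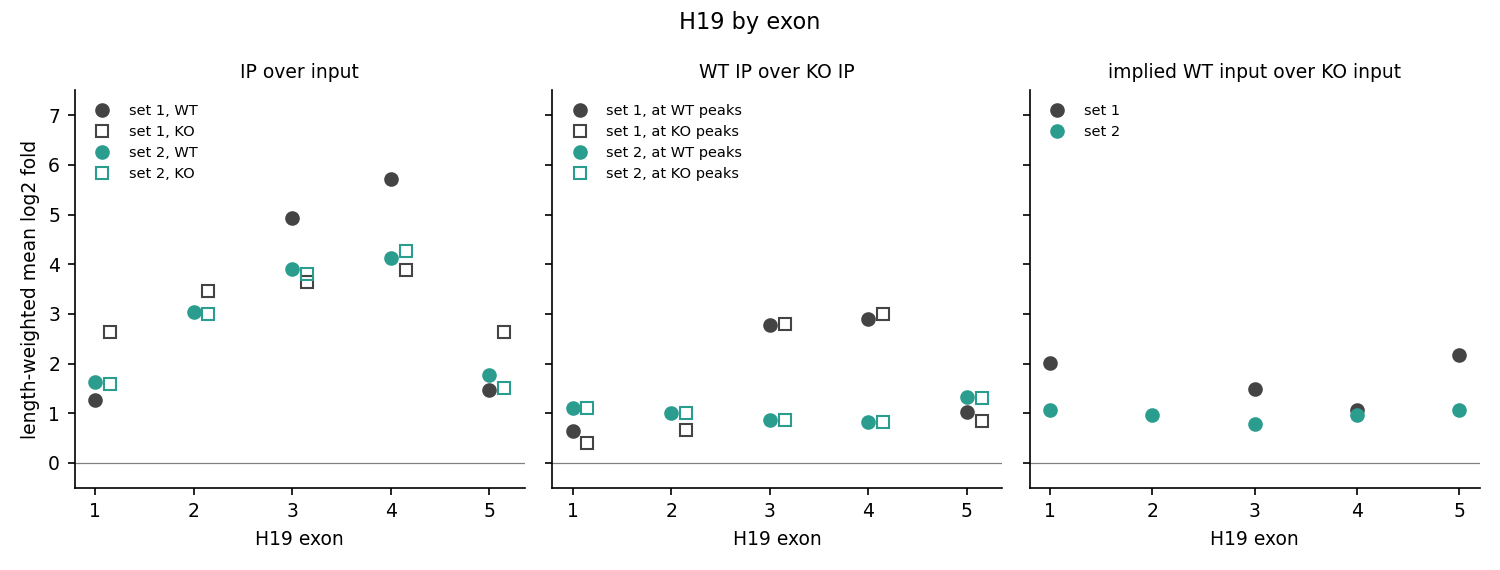
Length-weighted mean log2 folds (vertical axis) by H19 exon (horizontal axis) for each set, with IP over input on the left, WT IP over KO IP in the middle, and the implied WT over KO input difference on the right. Exons 3 and 4 were highest over input in both sets, and their WT over KO values of 2.77 and 2.91 in set 1 fell to 0.88 and 0.83 in set 2.

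Malat1 (chr19:5795690-5802672, minus strand) had mostly peaks below input. Its median log2 fold over input was −2.04 in WT set 1, −0.59 in KO set 1, −0.54 in WT set 2 and −0.56 in KO set 2. The peaks below 0 were 24 of 24, 25 of 29, 45 of 50 and 53 of 61. A log2 fold below 0 always carried a −log10 p of 0 in these lists, so depletion had no p-value of its own. The mean was −1.29 ± 1.06 in WT and −0.58 ± 0.02 in KO (SD, n = 2 sets), and WT set 1 was the low value. Malat1 stood at place 6211 of 6215 genes in WT set 1, 6030 of 6484 in KO set 1, 9290 of 9767 in WT set 2 and 9224 of 9769 in KO set 2.

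Along Malat1 the stretch from 1000 to 2000 nt held 6 of 24 peaks in WT set 1, 7 of 29 in KO set 1, 24 of 50 in WT set 2 and 26 of 61 in KO set 2. The first 1000 nt held 2, 0, 1 and 1, and no library had a peak beyond 6000 nt. The highest Malat1 peak had a log2 fold of −0.56 in WT set 1, 0.77 in KO set 1, 0.36 in WT set 2 and 0.43 in KO set 2. In WT 87.5% of the Malat1 peaks of set 1 met a peak of set 2, and in KO 89.7% did, against 69.5% and 54.1% of all peaks. Between AGO2 libraries, WT over KO was −0.29 in set 1 and 0.06 in set 2 on the log2 scale, or −0.11 ± 0.25 (SD, n = 2 sets), so the difference was smaller than the spread between sets.

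Neat1 (chr19:5824708-5845478, minus strand) differed between sets more than between genotypes. Its median log2 fold over input was −1.54 in WT set 1 and −1.09 in KO set 1, against 1.34 in WT set 2 and 0.88 in KO set 2. The peaks above 0 were 2 of 32, 2 of 27, 156 of 159 and 77 of 94 in that order. The mean was −0.10 ± 2.04 in WT and −0.11 ± 1.39 in KO (SD, n = 2 sets), so the gap between genotypes was smaller than the spread between sets. No Neat1 peak reached the threshold of 3, yet at a log2 threshold of 1 Neat1 had 116 of 159 peaks in WT set 2 and 46 of 94 in KO set 2, and 0 in both libraries of set 1. The shares of all peaks past that lower threshold were 5.37% and 4.72% in set 2, and 7.14% and 1.99% in WT and KO of set 1.

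The place of Neat1 peaks also differed. Neat1 has a short isoform, Neat1-202, that shares the first 3.17 kb with the long one, which alone builds paraspeckles. In set 1 the shared part held 18 of 32 WT peaks and 25 of 27 KO peaks, and in set 2 it held 58 of 159 and 47 of 94. One peak of WT set 2 crossed the boundary and was counted on both sides. Per kb the shared part had 5.67, 7.88, 18.3 and 14.8 peaks in WT set 1, KO set 1, WT set 2 and KO set 2, and the part found in the long isoform alone had 0.80, 0.11, 5.80 and 2.67.

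The log2 folds ran the other way. In the shared part the median log2 fold over input was −1.92 in WT set 1, −1.11 in KO set 1, 0.84 in WT set 2 and 0.08 in KO set 2. In the part of the long isoform alone it was −0.92, 1.25, 1.50 and 1.48, the KO set 1 value over 2 peaks. The long part was higher than the shared part in all 4 libraries. No library had a Neat1 peak beyond 20000 nt.

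**Figure D5:**
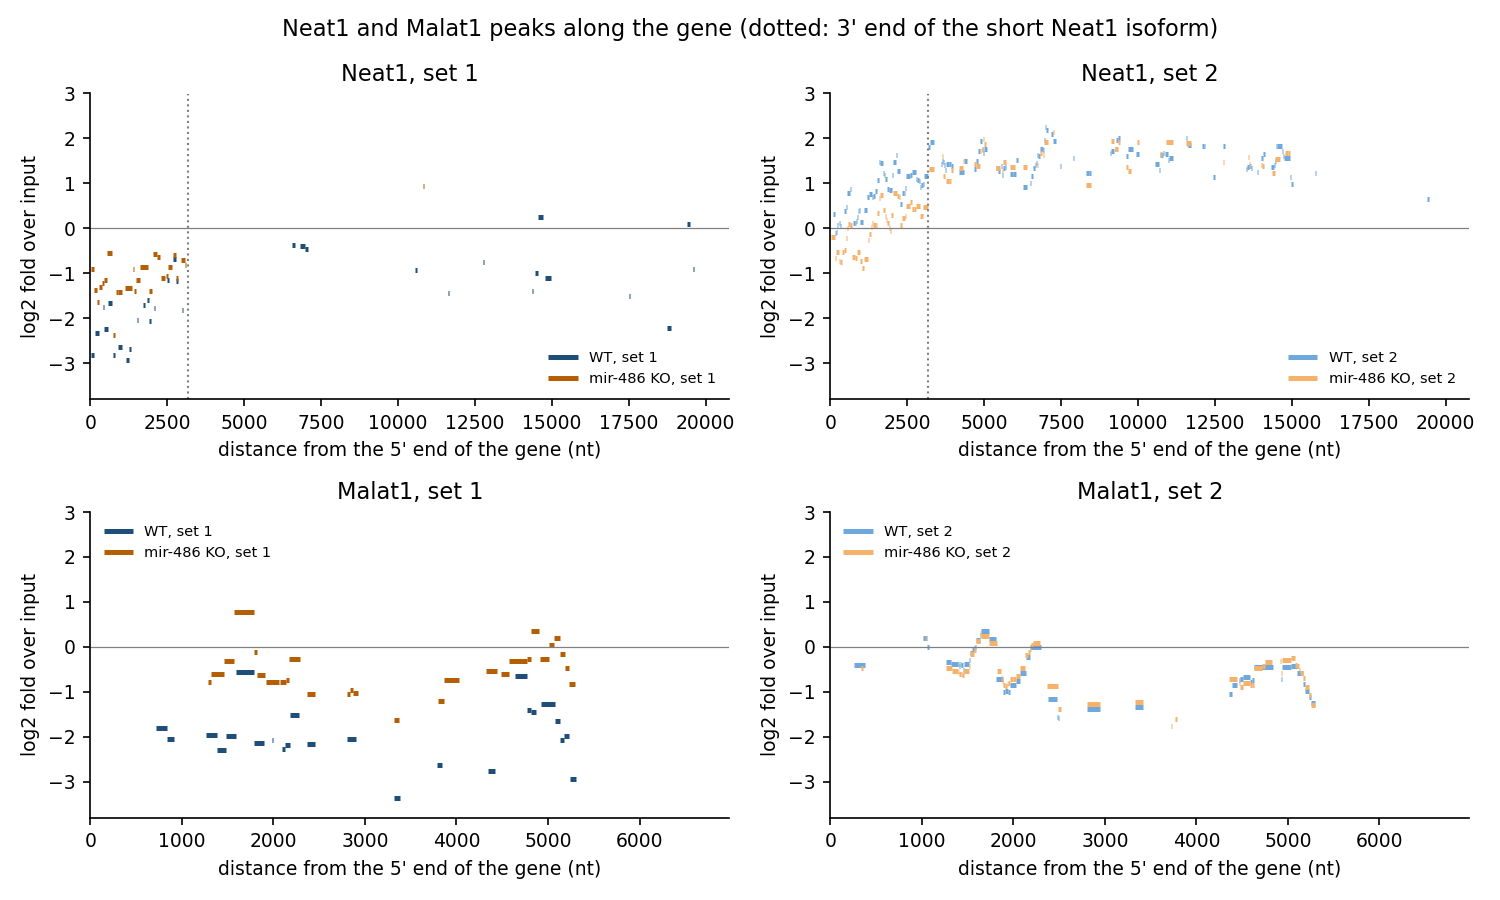
The log2 fold over input (vertical axis) of each Neat1 peak (upper row) and Malat1 peak (lower row) against distance from the 5′ end of the gene in nt, set 1 on the left and set 2 on the right, with a dotted line at the end of the short Neat1 isoform. Neat1 set 2 peaks rose along the shared part and stayed between about 1 and 2 beyond it, and Malat1 peaks of the 2 genotypes overlay each other in set 2.

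Between AGO2 libraries Neat1 gave opposite directions. At WT peaks the median log2 fold of WT over KO was −0.28 in set 1 and 1.57 in set 2, and at KO peaks it was −0.89 and 1.33. In set 1 the WT library was the higher one at 14 of the 32 peaks called in WT and at 1 of the 27 called in KO. In set 2 it was the higher one at all 159 and all 94. The mean of both kinds was −0.58 in set 1 and 1.45 in set 2, or 0.43 ± 1.44 (SD, n = 2 sets). In set 2 Neat1 stood at place 8 of 9048 genes, and in set 1 at 5053 of 5282. At a log2 threshold of 1 and a −log10 p of 3, 117 of 159 Neat1 peaks passed in WT over KO set 2, against 0.403% of all peaks. In set 1 the Neat1 peaks past it were 5 of 32 in WT over KO and 8 of 27 in KO over WT, against 4.85% and 0.755%.

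The direction also differed along Neat1. In the shared part the median of WT over KO at WT peaks was −0.84 in set 1 and 0.93 in set 2, and in the part of the long isoform alone it was 1.05 and 1.70. The shared part was thus lower in WT in set 1 and higher in WT in set 2, while the long part was higher in WT at the WT peaks of both sets. The KO peaks gave 0.90 in the shared part and 0.18 in the long part as KO over WT in set 1, and −0.90 and −1.64 in set 2, so at the 2 KO peaks of the long part in set 1 the direction was the other one.

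Markers of blood, macrophages and fibroblasts, cells that share the muscle with its fibers, also stood higher in WT in set 2. Those of endothelium, Schwann cells and fat did not stand higher in WT at both kinds of peak. The 5 blood markers had a median WT over KO of 1.47 at WT peaks of set 2 and 1.32 at those of set 1, and the 4 macrophage markers had 1.08 and 1.74. With the sign turned at KO peaks the blood markers had 1.47 and 1.16, and the macrophage markers 0.83 and −1.001, the second value of each pair from set 1. The 4 fibroblast markers had 0.65 at WT peaks and 0.38 with the sign turned at KO peaks in set 2, and 0.51 and −0.32 in set 1. In set 2 the 4 endothelium markers had a WT over KO of −0.06 at WT peaks and a KO over WT of 0.22 at KO peaks. The 4 Schwann cell markers had 0.25 and 0.59, and the 5 fat markers 0.25 and 0.04, in the same order. Listed peaks were present for 5, 4, 5 and 5 of the 5 blood markers and for 3, 3, 4 and 3 of the 4 macrophage markers in WT set 1, KO set 1, WT set 2 and KO set 2. Their part in the Neat1 and H19 values was not tested. The implied WT over KO input difference of Neat1 was 0.08 in set 1 over 18 matched peaks and 0.87 in set 2 over 111.

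The Dlk1-Dio3 transcripts had few peaks with weak folds. Meg3 (chr12:109541001-109571726, plus strand) had 2, 8, 15 and 14 listed peaks in WT set 1, KO set 1, WT set 2 and KO set 2. Its median log2 folds over input were −0.56, 0.88, 0.64 and 0.42. The mean was 0.04 ± 0.85 in WT and 0.65 ± 0.33 in KO (SD, n = 2 sets), and the genotypes overlapped. The highest −log10 p of a Meg3 peak over input was 2.41, so none reached 3.

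The Meg3 peaks with the highest −log10 p of KO set 1, WT set 2 and KO set 2 lay close together, between 5462 and 5730 nt from the 5′ end of the gene. Their log2 folds were 1.91, 1.20 and 1.10. Meg3 peaks fell in exons as well as introns, with 14 of 39 midpoints in an annotated exon. Annotated exons cover 18.1 kb of the 30.7 kb of the gene, so they held a smaller share of the midpoints than of the length. WT over KO was −0.97 in set 1 and 0.89 in set 2, or −0.04 ± 1.32 (SD, n = 2 sets). In set 1 WT was lower at both Meg3 peaks called in WT and at all 8 called in KO, and it was higher in set 2 at all 15 WT peaks and 10 of 14 KO peaks.

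Rian (chr12:109603940-109661716, plus strand), a host of C/D box snoRNAs, had no listed peak in WT set 1 and 4, 19 and 12 in KO set 1, WT set 2 and KO set 2. Its median log2 folds over input were 0.96, 0.47 and 0.90. The WT set 2 value was the same as the median over all peaks of that library. The highest Rian values were a pair of adjoining pieces of WT set 2 from 46721 to 47027 nt, at 2.38 and 2.28 with −log10 p of 4.39 and 3.96. Of the 13 snoRNAs that Rian hosts, 1 held a listed peak in WT set 2 and in KO set 2, at log2 folds of −0.53 and 1.24, and none of its 4 microRNA genes held one. WT over KO was −1.13 in set 1, over KO peaks alone, and 0.74 in set 2, or −0.19 ± 1.33 (SD, n = 2 sets).

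Mirg (chr12:109729764-109749460, plus strand) had the fewest peaks of the 6 genes over the 4 libraries together. It had 3, 1, 8 and 5 listed peaks in WT set 1, KO set 1, WT set 2 and KO set 2, and 15 of these 17 lay on its 14 hosted microRNA genes, whose hairpins make up 5.45% of its length. By comparison 0 of 35 Rian peaks, 1 of 39 Meg3 peaks and 2 of 98 H19 peaks lay on a hosted microRNA gene. The hairpins make up only 0.66% of Rian, 0.57% of Meg3 and 3.21% of H19, so few peaks on them would be counted by length alone. The median log2 folds of Mirg over input were −0.39, 1.61, 1.06 and 1.24. The WT set 2 median was the most common log2 value of that list. Of the 14 microRNA genes in Mirg, 2, 1, 4 and 5 held a listed peak in the 4 libraries. Among all 2202 annotated microRNA genes, 11.9%, 11.2%, 13.9% and 14.4% did.

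The Mirg peaks followed the mature arms. The single enriched one, at chr12:109738435-109738460 in WT set 2, had a log2 fold of 3.06 and a −log10 p of 3.63 and covered all 22 bases of miR-154-5p. A peak over the whole of miR-154-5p was also listed in WT set 1 at 0.87 and in KO set 2 at 1.82, both below the threshold, with −log10 p of 0 and 0.57. miR-541-5p was covered by 24 of its 25 bases in KO set 1 at 1.61, by all 25 in WT set 2 at 2.47 and by 23 in KO set 2 at 1.56. The −log10 p of these was 0.35, 1.04 and 0.37. miR-369-3p had peaks in both set 2 libraries, at 1.06 in WT and 0.82 in KO. These are the most common log2 values of the 2 lists, and the −log10 p was 0.19 and 0. miR-410-3p had a pair of adjoining pieces in WT set 1, both at −0.39. miR-154-5p and miR-541-5p thus had a listed peak in 3 of the 4 libraries each.

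The WT over KO values of Mirg depended on where they were read. At WT peaks the median was 2.48 in set 1 over 3 peaks and 1.71 in set 2 over 8 peaks. At KO peaks it was −1.65 over 1 peak and 0.54 over 5 peaks. The mean of both kinds was 0.42 in set 1 and 1.12 in set 2, or 0.77 ± 0.50 (SD, n = 2 sets). Over the KO peaks alone it was −0.56, with the opposite sign.

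Whether a peak of one set met a peak of the other set on the same strand was counted for each genotype. Over the 6 genes 63 of 75 WT peaks of set 1 met a WT peak of set 2, and 110 of 284 did the reverse. In KO they were 78 of 92 and 131 of 214. The shares were 84.0%, 38.7%, 84.8% and 61.2%, and over all listed peaks they were 69.5%, 29.3%, 54.1% and 28.3%. Malat1 had the most even shares, at 87.5% and 74.0% in WT and 89.7% and 88.5% in KO. Meg3 had 1 of 2 and 2 of 15 in WT, and Rian had 0 of 19 WT set 2 peaks met, since WT set 1 listed no Rian peak. Both sets hold different numbers of peaks, so each share is given in both directions.

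For the 3 genes with at least 5 peaks in each of the 8 lists, 5221 genes could be compared over their 8 median log2 folds. The nearest to H19 were Mettl26, Eif1b and Nabp1, at distances of 1.56, 1.67 and 1.96, against a median distance of 4.71 over all genes. The nearest to Malat1 were Dctn6, Arglu1 and Snrnp70, at 0.98, 1.18 and 1.36, against 3.69. The nearest to Neat1 were Slc40a1, Dpt and Scd2, at 2.23, 2.36 and 2.45, against 3.94, so no gene lay as near to Neat1 as those near to Malat1.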

How the data were processed

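Mouse tibialis anterior AGO2 binding by chimeric eCLIP was read from 8 peak lists, 4 of an AGO2 library over its input and 4 of one AGO2 library over the other. The submitters' processing notes name UMI-tools, FastQC, cutadapt, STAR and SAMtools, and per the methods the authors called peaks with CLIPper. The methods list versions for most of these, which are not repeated here. The log2 values were deposited by the authors as the fold of reads in a peak between 2 libraries, scaled to library size. The −log10 p values were deposited by the authors for the same peaks, run from 0 to 400, and are 0 wherever the log2 fold is below 0. Overlapping peaks had been collapsed by the authors, which left runs of peaks that adjoin end to end. The lists hold no read counts, so depth is unknown and no interval on a fold could be given. The most common log2 value took 18.9%, 24.9%, 9.93% and 10.5% of the peaks of WT set 1, KO set 1, WT set 2 and KO set 2.

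Peaks were given to genes of GENCODE M21 (GRCm38.p6) where they shared 1 nt or more and the strand. The labels name release M24 of the same build. All chromosome names were found in the reference, and no peak ran past a chromosome end. For each gene and list the median log2 fold over listed peaks was taken, and the mean and SD over the 2 sets. WT over KO was the mean of the median at WT peaks and of the sign-turned median at KO peaks. An enriched peak had to reach 3 on both the log2 and the −log10 p scale. Ranks used genes with at least 5 listed peaks. Likeness was the Euclidean distance over the medians of the 8 lists. Named sites were, per gene, the enriched peak with the highest log2 fold, preferring one enriched in both sets, and every peak past the thresholds in a direct list. Seed words were 7 nt, opposite bases 2 to 8, on the sense strand. Of 16 listed microRNAs, 11 had a sequence in the table used. The words were CTACCTC (let-7a-5p), TGGTGCT (miR-29a-3p), TGTTTAC (miR-30a-5p), TACTTGA (miR-26a-5p), ACTGTGA (miR-27b-3p), CTGAGCC (miR-24-3p), GGCAGCT (miR-22-3p), CTCAGGG (miR-125b-5p), ACAGGGT (miR-10b-5p), AGTCTTA (miR-499-5p), ACCAAAG (miR-9-5p) and ACATTCC (miR-206-3p). The genes and lists were chosen with earlier results of these data known. The miR-486-enriched libraries of the series were not analysed here.

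Alternatives changed the thresholds, the overlap rule, the weighting of peaks, the treatment of introns and of peaks on other genes, and left out each set. Peak assignment and counting were tested on simulated data. Python 3.11.15, numpy 2.4.6, pandas 2.3.3, bedtools 2.31.1, samtools 1.23.1 and matplotlib 3.10.9 were used.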

Additional observations from a re-analysis of the deposited data

Results flagged for a closer look

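For 4 genes the WT over KO difference between AGO2 libraries had one sign in set 1 and the other in set 2, and this difference between sets was not tested. Malat1 was at −0.29 in set 1 and 0.060 in set 2 on the log2 scale. Neat1 was at −0.58 and 1.45. Meg3 was at −0.97 and 0.89, and Rian at −1.13 and 0.74, where set 1 of Rian rested on KO peaks alone.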

How the results depend on the processing

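Of 171 alternative values, 134 stayed close to the main value, 36 moved further, and 1 changed sign from a mean larger than the SD. Close meant within the SD of the 2 sets for log2 folds and within 1.5 times for counts. For Rian in WT, with peaks in only 1 set, the SD over its 3 libraries with peaks was used. Recurrence shares were judged by the 95% Wilson interval of the main share, and all their alternatives moved. With 2 sets, leaving one out always moves a log2 mean by less than the SD. The 35 log2 values of that kind were therefore bound to count among the 134. Of the 118 alternative log2 values, 19 had another sign than the mean of both sets, and 18 of these were from means smaller than the SD. For the 8 that left one set out, a mean smaller than the SD follows from having 2 sets. The 18 concerned Neat1, Meg3 and Mirg over input, and Malat1, Neat1, Meg3 and Rian in WT over KO. There Neat1 ran from −0.58 to 1.45 with one set left out, and Rian reached 1.12 at WT peaks. The cause was not tested. Enriched peaks of the 6 genes numbered 8 per list in WT and 12.5 in KO as a mean of the sets. They became 83 and 46.5 with the log2 threshold lowered to 1, 3.5 and 3.5 with it raised to 4, and 3 and 6 after adjoining pieces were merged. Leaving out one set gave 5 to 11 in WT. WT over KO peaks past the thresholds, 1 per list, became 76, 0 and 0.5 under the same changes and 0 to 2 without one set, so both came from set 1. KO over WT peaks, 0 per list, became 5 at a threshold of 1.

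The Rian median over input in WT, 0.47, became 0.059 in exons alone and 1.06 weighted by length. In KO, 0.93 became 1.18 in exons, 1.18 weighted by length and 0.76 without peaks on another gene. Malat1 in KO became −0.54 weighted by length, and Mirg in KO 1.03 in exons. Without set 1 or set 2, Neat1 over input was 1.34 or −1.54 in WT and 0.88 or −1.09 in KO, Meg3 in WT 0.64 or −0.56, and Mirg in WT 1.06 or −0.39. Rian in WT could give no value without set 2.

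H19 WT over KO, 1.06, was 1.09 at WT peaks, 1.02 at KO peaks, 1.04 after the median of all peaks was subtracted, 1.07 without peaks on another gene and 1.08 weighted by length. Mirg WT over KO, 0.77, was 2.09 at WT peaks, −0.56 at KO peaks and 1.91 without peaks on another gene. With an overlap of 50% of both peaks, recurrence fell to 56.0% and 14.8% in WT and 46.7% and 20.1% in KO (set 1 in set 2, then the reverse). Among enriched peaks it was 100% (5 of 5), 63.6%, 61.5% and 91.7%. Seed words numbered 8 in member peaks, all of miR-29a-3p, and 22 with 6-nt words, of which 13 were of miR-9-5p and 9 of miR-29a-3p. Depth was unknown, and Meg3, Rian and Mirg rested on 19 peaks or fewer in every list. No paired test between genotypes was made, as the 2 sets give only 2 pairs of libraries. The WT over KO values are themselves differences within a set.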
